A study of Homo sapiens with 4 samples.

Results

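The transcriptome of HCT116, a human colorectal carcinoma line of epithelial origin, was compared between 1 library made after LPS and 1 control library. Both cultures were kept in Advanced DMEM/F-12 with fetal bovine serum, and the treated culture received LPS at 1 ug/mL for 24 h. HT29, a second colorectal line grown in the same medium, was sequenced in the same 2 conditions, and 2 of the 4 libraries of the study are therefore HCT116 libraries. The line with and without LPS was used by the study as a model of the inflamed intestinal epithelium, alongside HT29, which has little glucocorticoid receptor transcript. Of 61544 genes in the table, 27373 had a count in an HCT116 library and 11230 reached a mean of 5 CPM, a count scaled to a common library total, over the pair. A further filter set aside 549 of these because their transcript matches another place in the genome, 113 of them on an alternate contig only. The remaining 10681 genes, 10261 of them protein-coding, are the measured genes described here.

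Lipopolysaccharide (LPS) is the outer membrane lipid of Gram-negative bacteria. LBP and CD14 hand it to the receptor complex of TLR4 and LY96 (MD-2), which signals through the adaptors MYD88 and TICAM1 (TRIF) to the kinases that release NF-κB from its inhibitors, while caspase-4 binds LPS inside the cell. NF-κB then switches on chemokines, adhesion molecules and its own inhibitors, so that transcripts such as NFKBIA, TNFAIP3 and CXCL1 are common readouts of the pathway.

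The HCT116 control library held 21268959 counts and the LPS library 19805162. Since neither condition was repeated, no replicate error can be given, and each gene is given as its counts in the control and the LPS library, the log2 ratio of LPS over control, and a 95% Clopper-Pearson interval. That interval covers counting error only and not the spread between cultures. Of the markers of intestinal epithelium, EPCAM had 5292 and 4155 counts, KRT8 53684 and 49872 and CDH1 1676 and 1678, while CDX1 and CEACAM5 were at 0 in both libraries. Among 10 leukocyte markers the highest count was 26, for ITGAM in the control, and PTPRC, CD3E and LYZ were at 0 in both. The collagen gene COL1A1, listed as a fibroblast marker, had 2225 and 1999 counts, whereas COL1A2, DCN and LUM were at 0.

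Most genes differed little between the libraries. The median log2 ratio over the 10681 measured genes was -0.01, the central 95% of them lay between -0.34 and 0.38, and 91.3% lay within 0.3 of 0. Of these genes 5136 were positive and 5545 negative, which is the split to set beside those of the gene lists. Above 0.58, the size threshold that the study states for its array comparisons, lay 40 genes (0.374% of those measured), and below -0.58 lay 24 (0.225%), 64 in all (0.599%). No gene lay above 1 and 2 lay below -1. With library size alone in place of TMM scaling the split was 33 above and 32 below, because that scaling moved the median of all genes by -0.025.

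The genes beyond 0.58 sat at the low end of the counted range. Of the 40 higher genes 25 had a mean of 5 to 10 CPM and 10 a mean of 10 to 20 CPM, and of the 24 lower genes 22 had a mean of 5 to 10 CPM. Among the 1227 genes of that lowest class the SD of the log2 ratios was 0.279, and counting error alone had an SD of 0.166 there. At 1 to 5 CPM, under the minimum used here, 386 of 2790 genes lay above 0.58 (13.8%) and 248 below -0.58 (8.89%). From 50 CPM upwards 2 genes passed the threshold, both of the mitochondrial genome. The counting interval lay wholly above 0 for 1870 genes (17.5%) and wholly below 0 for 2166 (20.3%). These shares rose with level. At 5 to 10 CPM 167 intervals lay above 0 and 120 below, of 1227 genes. At 100 to 500 CPM 483 lay above and 601 below, of 1918 genes, and from 500 CPM upwards 65 and 69 of 159. The intervals of a gene list are therefore to be read against genes of the same level, and that comparison was not tested.

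**Figure D1:**
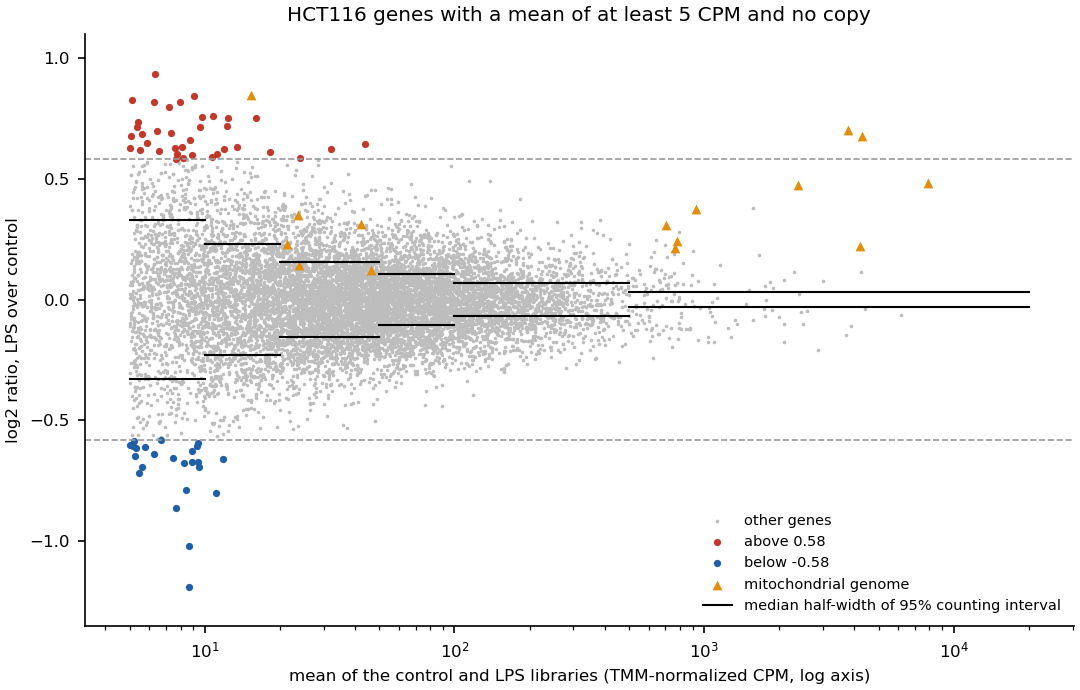
Log2 ratio of the HCT116 LPS library over the control library (vertical axis) against the mean of both libraries in TMM-normalized CPM (horizontal log axis) for the 10681 measured genes, with dashed lines at 0.58 and -0.58 and black steps at the median half-width of the counting interval in each class of level. The 40 genes above and 24 below the lines lie mostly under 20 CPM, and the orange triangles of the mitochondrial genome all lie above 0, MT-CYB and MT-ND1 at 0.70 and 0.68.

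Transcripts of the LPS receptor were at or near the limit of detection. TLR4 had 0 counts in both HCT116 libraries, which allows up to 0.133 CPM in the control and 0.145 CPM with LPS at a floor of 3 counts, and it had 313 and 362 counts in HT29. LY96, the partner that holds the lipid, had 0 and 1 counts, and LBP, the serum carrier, had 0 in both. CD14, the coreceptor, had 12 and 9 counts. These 4 genes of LPS binding outside the cytosol were therefore below the minimum for measurement, and whether their proteins were present was not measured.

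Downstream of the receptor, 17 of the 24 listed sensing and adaptor genes were measured and none lay beyond 0.58. Of all measured genes 0.599% lay beyond it, so that none in a list of this size says little, here and in the lists below. The median log2 ratio of the 17 genes was -0.0043, with 8 positive and 9 negative, and 6 intervals lay above 0 and 4 below. The median was 0.05 with a minimum of 1 CPM and with no filter on low counts. MYD88, the adaptor of the Toll-like receptors, had 986 control counts and 1118 after LPS (log2 ratio 0.31, interval 0.18 to 0.43). TIRAP, which recruits MYD88 to the membrane, had 136 and 169 counts (0.44, interval 0.11 to 0.78). IRAK4, the first kinase after MYD88, had 277 and 330 counts (0.38, interval 0.15 to 0.62).

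The intracellular LPS sensor and some later kinases differed by similar amounts in either direction. CASP4, the caspase that binds LPS in the cytosol, had 157 and 205 counts (0.51, interval 0.21 to 0.82), the largest log2 ratio of the 17 measured members. MAP3K7, the kinase TAK1 that passes the signal to the IκB kinases, had 1488 and 1103 counts (-0.30, interval -0.42 to -0.19). TOLLIP, which restrains Toll-like receptor signalling, had 1209 and 940 counts (-0.23, interval -0.36 to -0.11). PELI1, a ubiquitin ligase of the IRAK proteins, had 153 and 106 counts (-0.39, interval -0.77 to -0.03).

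The NF-κB subunits and kinases, 10 measured genes, had a median of -0.02, with 5 positive and none beyond 0.58. RELA, the p65 subunit, had 2781 and 2865 counts (0.17, interval 0.10 to 0.25) and NFKB1, its p50 partner, 1231 and 1096 (-0.04, interval -0.16 to 0.08). CHUK, which encodes the kinase IKKα, had 1633 and 1294 counts (-0.21, interval -0.31 to -0.10). The median of this list turned positive, to 0.0019, when IKBKG, which has a copy, was kept.

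The inhibitors and feedback genes of NF-κB, several of which it induces itself, had 12 measured members and a median of 0.03 with 6 positive and none beyond 0.58. The sign of that median turned with the trends with gene length and GC content removed (-0.01) and without genes whose exons overlap another gene (-0.02). The promoters of NFKBIA, TNFAIP3 and CXCL1 are shown because their κB motifs are the classic binding letters of NF-κB just upstream of the start, and because all 3 genes are usual readouts of LPS. They were taken from the RefSeq table for GRCh38.p14, read 5′ to 3′ on the strand of the gene up to its start, with matches to the κB motif on either strand in capitals. Motifs that overlap are joined in 1 run of capitals, and the genes and motifs were chosen after their values were seen.
NFKBIA (chr14:35404750-35404900, minus strand): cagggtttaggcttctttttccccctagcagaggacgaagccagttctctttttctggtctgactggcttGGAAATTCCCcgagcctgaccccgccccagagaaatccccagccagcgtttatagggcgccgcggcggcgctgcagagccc
TNFAIP3 (chr6:137867108-137867258, plus strand): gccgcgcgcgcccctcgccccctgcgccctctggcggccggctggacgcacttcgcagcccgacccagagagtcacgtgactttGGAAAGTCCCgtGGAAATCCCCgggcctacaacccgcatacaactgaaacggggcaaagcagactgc
CXCL1 (chr4:73869242-73869392, plus strand): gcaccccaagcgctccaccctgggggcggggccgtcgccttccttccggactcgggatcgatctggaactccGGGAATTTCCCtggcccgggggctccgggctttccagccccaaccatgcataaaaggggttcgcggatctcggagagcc

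The κB motif was found in 1128 of the 8584 measured genes with a promoter in that table (13.1%), where a promoter runs from 250 bases before the start to 50 after it, and in 10.8% of all 27195 promoters. It was found in 4 of 11 promoters of the measured feedback genes. Of the genes above 0.58 with a promoter in the table it was found in 2 of 20, and of those below -0.58 in 0 of 11. The median log2 ratio was 0.00048 over the genes with the motif and -0.01 over the 7456 without it. A match is a description of the letters and says nothing of binding in these cells.

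NFKBIA, the inhibitor IκBα shown above, had 614 counts in the control and 596 with LPS (0.08, interval -0.08 to 0.25). TNFAIP3, the inhibitor A20, had 90 and 66 counts and a mean under 5 CPM (-0.31, interval -0.80 to 0.16), and 48 and 120 in HT29. BIRC3, a ubiquitin ligase of the TNF receptor complex, had 69 counts in both and was also under 5 CPM. NFKBIB, a further IκB protein, had 1531 and 1190 counts (-0.23, interval -0.35 to -0.13). The counting intervals of NFKBIA, TNFAIP3 and BIRC3 included 0.

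Of 28 listed effector targets of NF-κB, 7 were measured, with a median of 0.02 and none beyond 0.58. Of the others 20 were under the minimum, and SOD2 could not be matched by gene ID, so that its value was not read. The median of this list was -0.0073 with library size alone and -0.03 with the trends with length and GC content removed. GADD45B, a stress sensor that NF-κB induces, had 229 and 272 counts (0.37, interval 0.12 to 0.64), and PLAU, the urokinase, had 817 and 846 (0.18, interval 0.04 to 0.32). SDC4, a syndecan of the cell surface, had 2277 and 1905 counts (-0.13, interval -0.22 to -0.04). Of the chemokines, which were named after their values were seen, CXCL1 had 19 and 7 counts and CXCL8 had 15 and 4, all under 1 CPM. IL6 had 0 and 2 counts, below the floor in either library, and TNF was at 0 in all 4 libraries but lies on 7 alternate contigs as well, so that its value cannot be read.

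**Figure D2:**
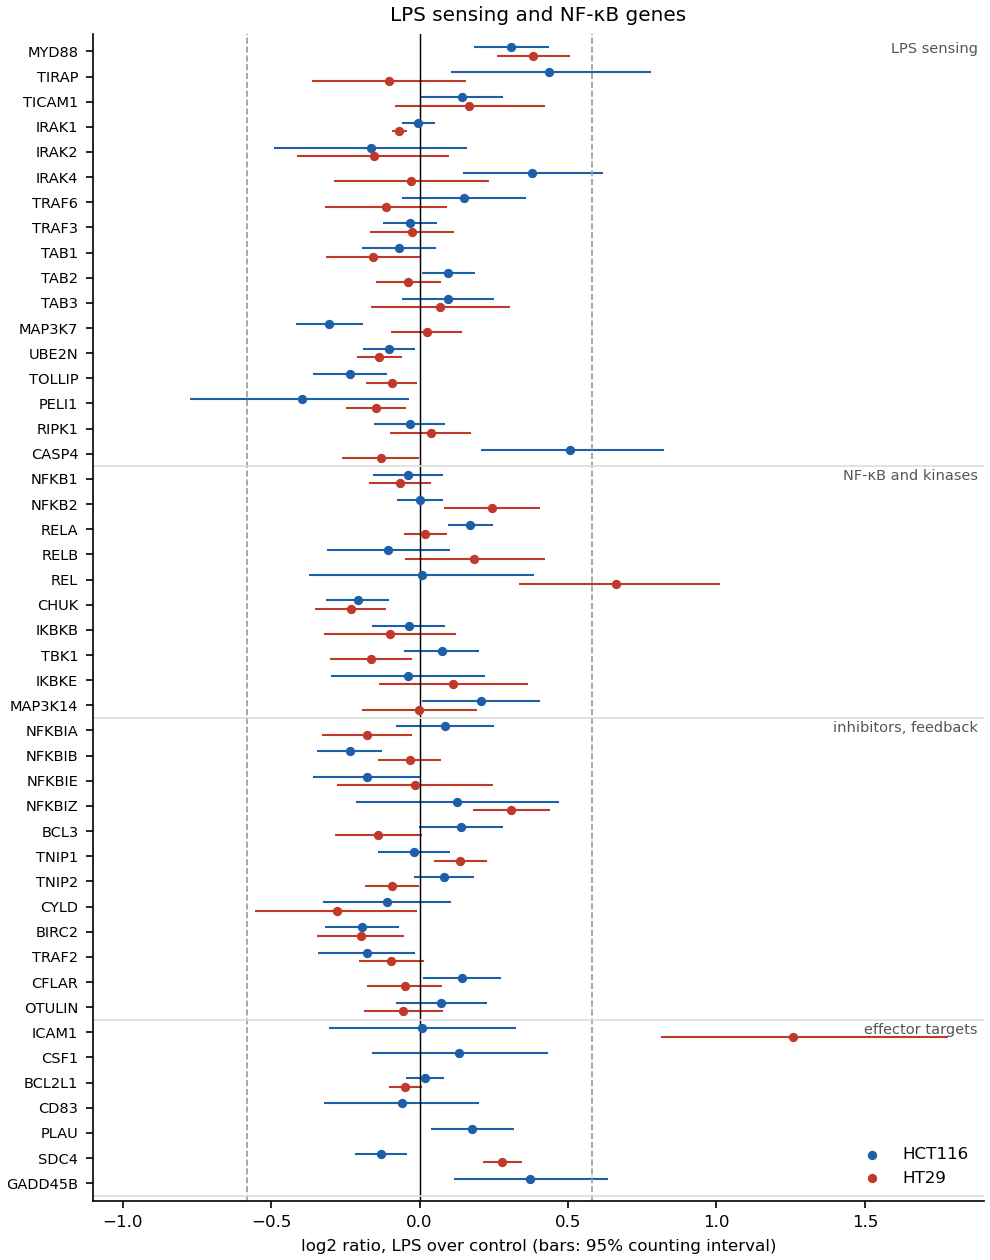
Log2 ratio of LPS over control (horizontal axis) for the measured genes of LPS sensing, the NF-κB subunits and kinases, the inhibitors and feedback genes and the effector targets, in HCT116 (blue) and HT29 (red, genes with at least 100 counts over the HT29 pair), where bars are 95% counting intervals. No HCT116 point lies beyond the dashed lines at 0.58 and -0.58, CASP4 lies highest at 0.51 and PELI1 lowest at -0.39.

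Other immune groups were split as well. The 28 interferon-stimulated genes measured had a median of -0.06, with 10 positive, 3 intervals above 0 and 8 below, and no gene beyond 0.58. IFITM2, a membrane protein that blocks virus entry, had 921 and 1155 counts (0.45, interval 0.33 to 0.58). OAS3, which makes the activator of RNase L, had 1745 and 1291 counts (-0.31, interval -0.41 to -0.20), and IFIH1, the RNA sensor MDA5, had 203 and 137 (-0.43, interval -0.76 to -0.12). The median of the list was 0.0041 over its 16 members that reached 20 CPM.

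The JAK, STAT and SOCS genes had a median of -0.0035 over 24 genes, with 6 intervals above 0 and 6 below. JAK3, the kinase of the common gamma chain receptors, had 274 and 341 counts (0.44, interval 0.21 to 0.68), and STAT6, the factor downstream of interleukin 4, had 2921 and 3275 (0.29, interval 0.22 to 0.37). The 13 inflammasome and cell death genes had a median of -0.09 (-0.04 with the trends with gene length and GC content removed), with 5 positive. CASP8, which starts death receptor apoptosis, had 902 and 678 counts (-0.28, interval -0.43 to -0.14). Of the 23 immediate early genes 17 were positive, with a median of 0.06, although FOS had 2033 and 1552 counts (-0.26, interval -0.36 to -0.17) and FOSB 374 and 249 (-0.46, interval -0.70 to -0.22).

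The study asked about the glucocorticoid receptor and TET2, a dioxygenase that oxidises methylcytosine. NR3C1, the receptor gene, had 615 counts in the control and 560 with LPS (-0.0070, interval -0.17 to 0.16), and TET2 had 485 and 534 (0.27, interval 0.09 to 0.45). In HT29 NR3C1 had 1 and 0 counts. The 18 measured targets of the receptor had a median of 0.01 (-0.02 with library size alone), with 10 positive and none beyond 0.58. PER1, a clock gene with glucocorticoid response elements, had 2104 and 2456 counts (0.35, interval 0.27 to 0.44), and KLF9, another direct target, had 159 and 107 (-0.44, interval -0.81 to -0.08).

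Transcripts of the mitochondrial genome were higher in the LPS library as a group. The genome codes for 13 subunits of the respiratory chain and the ATP synthase, 2 rRNAs and 22 tRNAs, and both of its strands are copied as long transcripts that are then cut apart. The 13 protein genes went from 961007 to 1304136 counts, or from 4.52% to 6.58% of the library, a log2 ratio of the sum of 0.57 (interval 0.56 to 0.57). All 13 were positive, between 0.21 and 0.71. This share is also used as a sign of RNA and cell quality, and its part in the result was not tested. In bulk RNA, more cells with a high share and more of these transcripts per cell cannot be told apart.

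Of the 10 protein and rRNA genes of this genome without a copy, 2 lay above 0.58, against 0.374% of all measured genes, and the median was 0.34. MT-CYB, cytochrome b of complex III, had 64837 and 96467 counts (0.70, interval 0.69 to 0.72), and MT-ND1, a membrane subunit of complex I, had 75065 and 109674 (0.68, interval 0.66 to 0.69). MT-ND4 had 149392 and 191212 counts (0.48) and MT-ND3 16034 and 17023 (0.21, interval 0.18 to 0.25). Genes of the same complex therefore differed from each other by more than their counting intervals. The 5 protein genes with a copy, whose reads may be split with nuclear copies, ranged from 0.44 for MT-CO1 to 0.71 for MT-ATP6.

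The 2 rRNAs lay lower than most of the protein genes, with a log2 ratio of their sum of 0.23. MT-RNR2, the large subunit RNA, had 88115 and 93980 counts (0.22, interval 0.21 to 0.23). MT-ND6, the protein gene read from the other strand, had 16111 and 17429 counts (0.24, interval 0.21 to 0.27). Whether counting used strand is not given, so that reads of the opposite transcript may be part of the MT-ND6 value. The same holds for MT-TN, MT-TC, MT-TY and MT-TP, the measured tRNA genes on the strand of MT-ND6. MT-TL1, a leucine tRNA gene that lies between MT-RNR2 and MT-ND1, had 248 and 410 counts (0.85, interval 0.62 to 1.09). Of the 22 tRNA genes 5 were measured and all 5 were positive, but the intervals of MT-TN (0.14) and MT-TC (0.12) included 0. Both were negative with the trends with gene length and GC content removed (-0.02 and -0.09). MT-TL1, at 75 bases the longest of the 5, is shorter than the reads that the study sequenced. Counts of the tRNA genes may therefore hold reads that reach into neighbouring genes, and mature tRNA was not measured apart from these. In HT29 the 13 protein genes had a median of 0.21 and ranged from 0.12 to 0.43, and the rRNAs had a median of -0.00073. No test of HCT116 against HT29 was run.

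**Figure D3:**
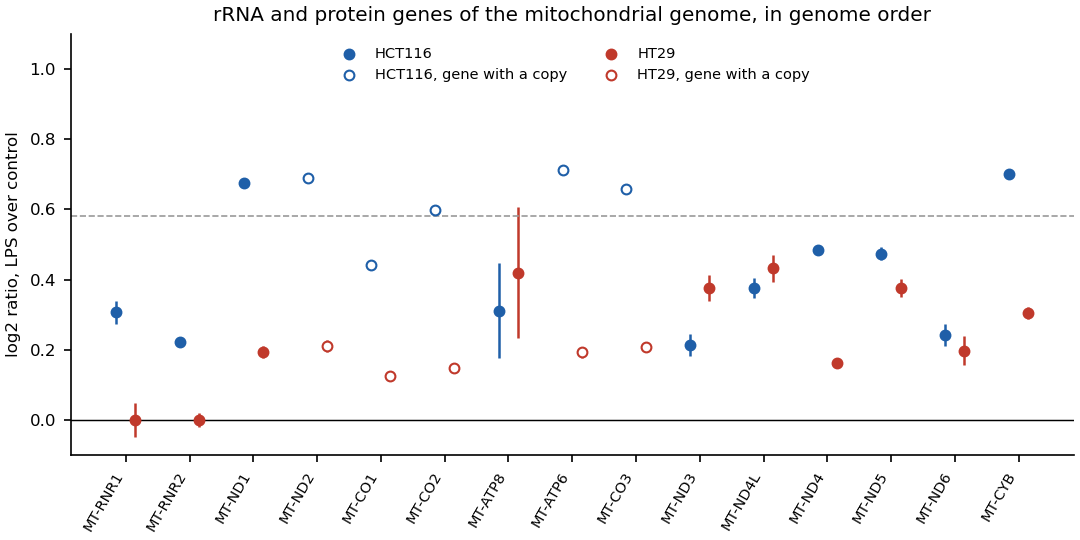
Log2 ratio of LPS over control (vertical axis) for the 2 rRNA and 13 protein genes of the mitochondrial genome in genome order, in HCT116 (blue) and HT29 (red), with 95% counting intervals as bars that are often shorter than the points and open points for genes with a copy. All 15 HCT116 points lie above 0, from 0.21 for MT-ND3 to 0.71 for MT-ATP6, and the HT29 points of the rRNAs lie at 0.

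Lists of nuclear genes for the same organelle had medians below 0, where the median of all measured genes was -0.01. The 33 measured nuclear subunits of complex I had a median of -0.08, with 9 positive, 5 intervals above 0 and 13 below. NDUFA5 had 1201 and 852 counts (-0.37, interval -0.50 to -0.24) and NDUFC1 799 and 555 (-0.40, interval -0.56 to -0.24), while NDUFA13 had 162 and 210 (0.50, interval 0.20 to 0.81). The 36 nuclear subunits of complexes II to V had a median of -0.03, with 15 positive. The 33 nuclear genes that copy, repair and read the mitochondrial genome had a median of -0.06, with 12 positive, 1 interval above 0 and 11 below.

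TFAM, which packs mitochondrial DNA and starts its transcription, had 1381 and 1061 counts (-0.25, interval -0.37 to -0.14). MTERF2, a mitochondrial transcription termination factor, had 146 and 90 (-0.56, interval -0.97 to -0.18), and DNA2, a nuclease and helicase of both genomes, had 368 and 233 (-0.53, interval -0.77 to -0.29). None of the nuclear genes of these 3 lists lay beyond 0.58.

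The 15 largest increases were led by PTCD1, a mitochondrial RNA-binding protein, with 98 and 173 counts (0.93, interval 0.58 to 1.32). It shares 58.4% of its exon bases with the readthrough gene ATP5MF-PTCD1, and the counting settings for such overlaps are not given. Genes with an exon overlap made up 22 of the 40 genes above 0.58, 5577 of the 10681 measured genes and 6 of the 24 below -0.58. Those with 20% or more of their exon bases overlapping made up 10 of the 40, 1116 of the 10681 and 1 of the 24. Reads of a gene and an overlapping or antisense partner cannot be told apart here, which also makes the values of PLAU, NDUFC1, NDUFA13, LDHB and CTSA uncertain.

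The increases without such overlap included channel and receptor genes, named by size and not tested as a group. CACNA1A, the pore of the P/Q-type calcium channel of neurons, had 269 and 416 counts (0.75, interval 0.53 to 0.98). C5AR1, the receptor of the complement fragment C5a, had 209 and 316 counts (0.72, interval 0.47 to 0.98), and 13 counts in each HT29 library. ILDR2, an immunoglobulin domain receptor, had 91 and 140 counts (0.74, interval 0.36 to 1.15) and 0 in HT29.

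KCNAB3, a subunit of potassium channels, had 130 and 211 counts (0.82, interval 0.50 to 1.15). LCAT, the plasma enzyme that esterifies cholesterol, had 208 and 322 counts (0.75, interval 0.50 to 1.02), and 27 and 57 in HT29, with 12.8% of its exon bases shared with SLC12A4. TRPV1, the heat and capsaicin receptor, had 152 and 221 counts (0.66, interval 0.36 to 0.98), but 30.0% of its exon bases overlap another gene. It was the only 1 of the 914 different genes in the lists of nuclear genes that lay above 0.58, and none of them lay below -0.58, where 0.374% and 0.225% of all measured genes lay.

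The decreases included a group of processed pseudogenes, which are inserted DNA copies of spliced mRNAs. PFN1P1 had 272 and 108 counts (-1.19, interval -1.54 to -0.88), RPS24P19 had 264 and 118 (-1.02, interval -1.36 to -0.72) and RPL5P34 had 224 and 112 (-0.86, interval -1.21 to -0.54). The intervals of PFN1P1 and RPS24P19 were the only 2 among the lower genes that lay wholly below -0.58. In HT29 the same genes had 168 and 192, 218 and 237, and 138 and 168 counts.

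Pseudogenes made up 7 of the 24 lower genes, 1 of the 40 higher genes and 106 of the 10681 measured genes, and the 28 processed pseudogenes had a median of -0.17, with 8 positive. Their parents were looked up after these values were seen. PFN1, which encodes profilin, had 14813 and 13925 counts (0.04, interval 0.0055 to 0.07), RPS24 had 9641 and 8777 (-0.0073) and RPL5 had 16142 and 15812 (0.10). These 3 parents thus differed far less than their pseudogenes. ZNRF2, a ubiquitin ligase gene, had 280 and 204 counts (-0.33, interval -0.60 to -0.06), on the same side as ZNRF2P1 with 266 and 150 (-0.69). NPM1, which has a copy, had 20557 and 16966 counts (-0.15, interval -0.18 to -0.12). Its pseudogene NPM1P39, named after its values were seen, had 137 and 82 counts (-0.60), and 158 and 100 in HT29 (-0.79). Reads of a pseudogene and its parent may be split between them in counting, so the values of the pseudogenes are uncertain. Without pseudogenes 39 genes lay above 0.58 and 17 below -0.58.

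Protein-coding decreases had counts between 84 and 328. ACAP1, a GTPase-activating protein of ARF6 in endosome recycling, had 241 and 127 counts (-0.79, interval -1.12 to -0.48). KCNK13, a tandem pore domain potassium channel, had 154 and 85 (-0.72, interval -1.13 to -0.34) and 0 in HT29. WNT6, a secreted Wnt ligand, had 173 and 101 (-0.64, interval -1.02 to -0.29) and 0 in HT29. TNFAIP8, a TNF-inducible regulator of cell death, had 244 and 144 (-0.63, interval -0.94 to -0.33), and B4GALT4, a galactosyltransferase of the Golgi, had 328 and 189 (-0.66, interval -0.93 to -0.40).

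**Figure D4:**
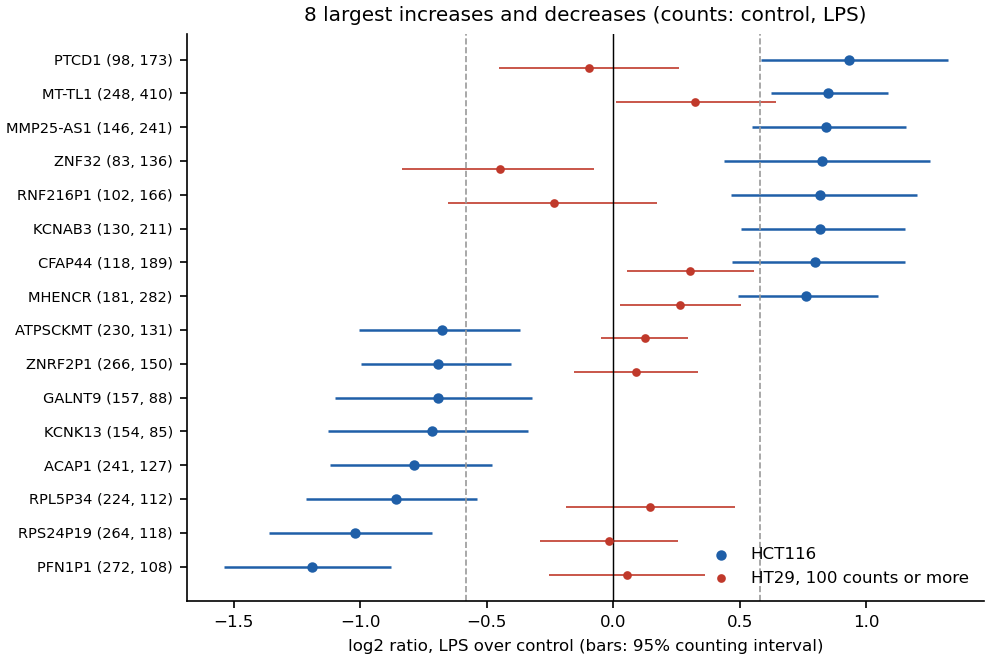
Log2 ratio of LPS over control (horizontal axis) with 95% counting intervals for the 8 largest increases and 8 largest decreases among measured genes with a symbol, each labelled with its counts in the control and LPS library, in HCT116 (blue) and, where the HT29 pair had at least 100 counts, in HT29 (red). HCT116 values run from 0.93 for PTCD1 to -1.19 for PFN1P1, and no red point lies beyond 0.58 or -0.58.

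At the edge of the threshold, ZNF611 lay just inside at 0.58 with 138 and 190 counts, and ALPP lay just outside with 150 and 206. On the lower side SYCE1L lay just inside with 181 and 110 counts and CLEC11A just outside with 177 and 108. The 4 genes were named for this position, after their values were seen, and the counting intervals of the members of each pair overlap widely.

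The list of mitotic genes had a median below that of all genes. The 28 measured genes of G2 and mitosis had a median of -0.11, against -0.01 over all measured genes, with 7 positive, 3 intervals above 0 and 14 below, and none beyond 0.58. ANLN, the anillin that scaffolds the contractile ring, had 2849 counts in the control and 2061 with LPS (-0.34, interval -0.42 to -0.26). CDK1, the mitotic kinase, had 2038 and 1519 (-0.30, interval -0.39 to -0.20), and CCNA2, its cyclin A partner, had 2012 and 1492 (-0.30, interval -0.40 to -0.21). TPX2, a spindle assembly factor, had 4618 and 3557 (-0.25, interval -0.31 to -0.19). In HT29 the same list had a median of -0.03.

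Not every mitotic gene lay lower. CCNB2, cyclin B2, had 1032 and 951 counts (0.01, interval -0.12 to 0.14), and MKI67, the proliferation marker Ki-67, had 7665 and 7394 (0.08, interval 0.03 to 0.12), both named after their values were seen. The promoters of CDK1, ANLN and CCNB2 are shown because mitotic genes share the CHR (letters TTTGAA) and the CCAAT box, through which the DREAM complex and NF-Y act in the cell cycle. They were printed from the same RefSeq table for GRCh38.p14 up to the start of the gene, with matches on either strand in capitals.
CDK1 (chr10:60778155-60778330, plus strand): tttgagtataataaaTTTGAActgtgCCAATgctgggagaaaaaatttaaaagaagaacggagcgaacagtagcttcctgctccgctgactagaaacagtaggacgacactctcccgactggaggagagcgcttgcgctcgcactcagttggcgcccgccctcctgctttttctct
ANLN (chr7:36389711-36389861, plus strand): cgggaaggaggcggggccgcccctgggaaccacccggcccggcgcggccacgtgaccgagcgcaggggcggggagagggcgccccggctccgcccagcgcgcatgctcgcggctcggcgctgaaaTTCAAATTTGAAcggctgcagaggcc
CCNB2 (chr15:59104995-59105145, plus strand): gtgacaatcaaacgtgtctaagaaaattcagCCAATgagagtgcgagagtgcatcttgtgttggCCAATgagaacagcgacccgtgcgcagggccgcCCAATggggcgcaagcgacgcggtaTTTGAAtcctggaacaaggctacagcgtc

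The CHR letters stood in the promoters of 15 of 23 mitotic genes with an entry (65.2%), against 8.67% of the 8584 measured genes and 15.4% of all promoters. The CCAAT letters stood in 19 of the 23 (82.6%), against 36.5% of measured genes and 35.7% of all promoters. Over the 744 measured genes with the CHR letters the median log2 ratio was -0.05, and over the 7840 without them it was -0.0073. The 744 include the 15 mitotic genes, and the trends with gene length and GC content were not removed from these medians. CCNB2, with 3 CCAAT boxes and a CHR in the stretch shown, differed less between the libraries than ANLN. In the stretch shown for ANLN a pair of CHR matches on opposite strands adjoin and no CCAAT box was found. A link between these letters and the log2 ratios of the genes was not tested.

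The G1/S and DNA replication genes had a median of -0.07 over 27 genes, with 4 positive, 1 interval above 0 and 9 below. SLBP, the histone mRNA binding protein, had 3054 and 2128 counts (-0.39, interval -0.47 to -0.31), FEN1, the flap endonuclease, had 3137 and 2361 (-0.28, interval -0.36 to -0.20), and GINS1, of the replicative helicase, had 1019 and 752 (-0.31, interval -0.45 to -0.17). The 28 targets of p53, which stops the cell cycle after damage, had a median of 0.02, with 15 positive. SESN2 had 890 and 1009 counts (0.31, interval 0.18 to 0.44) and RRM2B had 3447 and 2717 (-0.21, interval -0.29 to -0.14). The p53 median was -0.0053 with library size alone.

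Cholesterol synthesis and uptake had the lowest median of the 42 lists of nuclear genes with at least 5 measured members, -0.12 over 23 genes. In it 3 genes were positive, 2 intervals lay above 0 and 12 below, and none lay beyond 0.58. The same 23 genes had a median of -0.10 in HT29. INSIG1, the sterol sensor that holds SREBP in the endoplasmic reticulum, had 3929 and 2958 counts (-0.28, interval -0.35 to -0.21), and 4036 and 3817 in HT29. SC5D, a late enzyme of the pathway, had 1659 and 1304 counts (-0.22, interval -0.32 to -0.11). DHCR7, which catalyses a last step to cholesterol, had 5055 and 5367 (0.21, interval 0.16 to 0.27).

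Lists of stress and metabolism had medians near that of all genes. The 21 genes of the unfolded protein response had a median of -0.03, and the 17 heat shock genes -0.04, with 9 intervals below 0 and 2 above. HSP90AA1, the inducible cytosolic HSP90, had 69687 and 55240 counts (-0.21, interval -0.22 to -0.19). The 32 targets of ATF4 had a median of 0.0073 (-0.02 with library size alone), the 23 targets of NRF2 -0.02, the 25 hypoxia genes 0.03 and the 21 glycolysis genes 0.06. FTH1, the heavy chain of the iron store ferritin, had 30878 and 36709 counts (0.38, interval 0.36 to 0.40) but shares 63% of its exon bases with BEST1. LDHB, lactate dehydrogenase B, had 1018 and 692 (-0.43, interval -0.57 to -0.29).

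The 51 measured cytosolic ribosomal proteins had a median of -0.0061 (0.0055 with the trends with length and GC content removed), with 20 intervals above 0 and 18 below. RPL23 had 6486 and 7408 counts (0.32, interval 0.27 to 0.37) and RPS29 had 2323 and 1564 (-0.44, interval -0.54 to -0.35). Splicing factors with poison exons and their kinases had a median of -0.05 over 38 genes, with 2 intervals above 0 and 16 below, and of -0.02 with the trends with length and GC content removed. SRSF3 had 9014 and 6948 counts (-0.25, interval -0.29 to -0.20), and 9095 and 8580 in HT29.

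On the higher side, the 31 lysosome and autophagy genes had a median of 0.07, with 21 positive, and CTSA, protective protein cathepsin A, had 2756 and 3125 counts (0.31, interval 0.24 to 0.38). The 29 insulin secretion genes had a median of 0.08, with 13 intervals above 0 and 6 below, and with the trends with gene length and GC content removed it was 0.0088. RAB3A, a GTPase of secretory vesicles, had 134 and 175 counts (0.51, interval 0.18 to 0.85), and KCNMB4, a subunit of the BK potassium channel, had 162 and 208 (0.48, interval 0.19 to 0.79).

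Of 36 listed genes of intestinal differentiation and mucins only 8 were measured, with a median of 0.09. CDX2, the intestinal master factor, had 474 and 572 counts (0.40, interval 0.22 to 0.58), and MUC1, a membrane mucin, had 170 and 206 (0.40, interval 0.11 to 0.71). The 17 Wnt targets and stem cell genes had a median of 0.09 (0.04 with the length and GC content trends removed), with 11 positive, and TCF7L2, the nuclear partner of β-catenin, had 4533 and 4829 counts (0.22, interval 0.16 to 0.28). SP5, a direct Wnt target, had 143 and 93 (-0.48, interval -0.89 to -0.11).

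**Figure D5:**
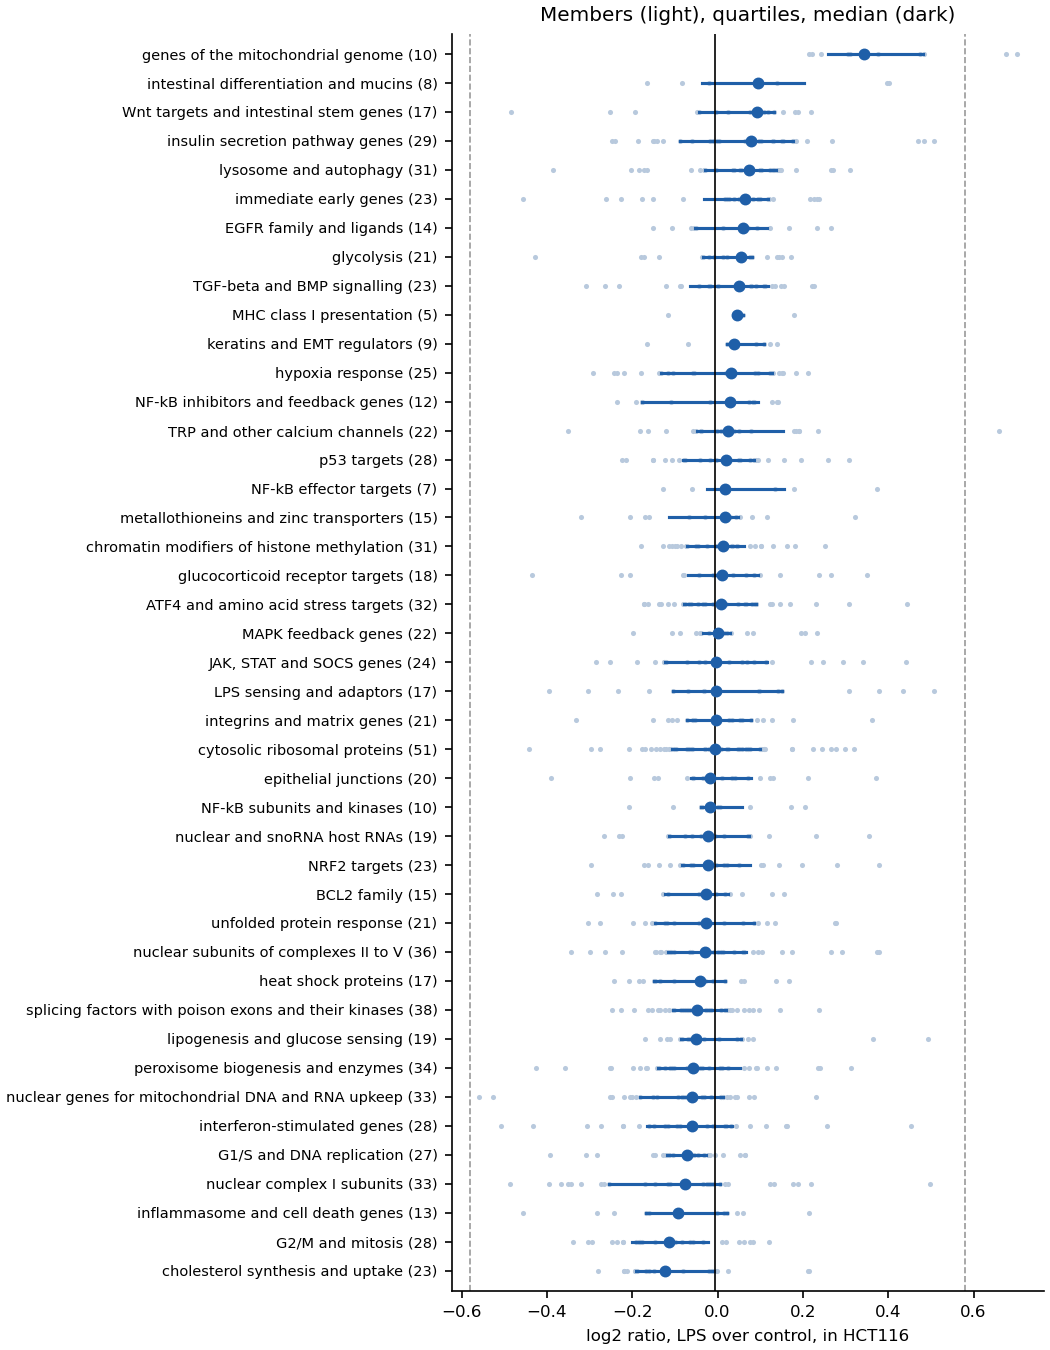
Log2 ratio of LPS over control in HCT116 (horizontal axis) for the 43 gene lists with at least 5 measured members, ordered by median, with the number of members in brackets, light points for genes, lines for quartiles, dark points for medians, a black line at the median of all measured genes and dashed lines at 0.58 and -0.58. The mitochondrial genome stands at the top with 0.34, and the other 42 medians lie between -0.12 and 0.09.

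Of the 42 lists of nuclear genes, 40 had a median within 0.1 of 0. The 914 different genes in them had a median of -0.02, with 182 intervals above 0 and 248 below. Lipogenesis and glucose sensing, with a median of -0.05 over 19 genes, held MLXIPL (ChREBP), the factor that switches on lipid synthesis in response to glucose, with 2616 and 3369 counts (0.49, interval 0.42 to 0.57), and its partner MLX with 1174 and 1383 (0.36, interval 0.25 to 0.48). In HT29 MLXIPL had 17 and 23 counts.

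The log2 ratios of HCT116 moved with the GC content of the transcripts, and the part of this trend in the list medians was tested only by removing it. In the fifth of measured genes with the lowest GC content, up to 40.68%, the median was -0.08, and 601 of 2143 genes were positive. In the fifth with the highest, from 59.06%, it was 0.05, and 1362 of 2133 were positive. Across genes, which are not independent replicates, Spearman's rho with GC content was 0.309 in HCT116 and 0.0455 in HT29. With gene length, as deposited with the counts, it was -0.0420 in HCT116 and 0.279 in HT29. Smooth trends with both explained 9.26% of the variance of the HCT116 log2 ratios. With them removed, the medians of the mitotic and cholesterol lists were -0.09 and -0.11, those of LPS sensing and of the NF-κB subunits -0.04 and -0.06, and those of glycolysis, NRF2 targets and lipogenesis 0.02, -0.0022 and -0.0092. The medians of complexes II to V, the unfolded protein response and hypoxia were then -0.0065, -0.04 and 0.05, and 36 genes lay above 0.58 and 22 below -0.58.

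In HT29, most of the genes beyond 0.58 in HCT116 lay within 0.58 of 0 or under 5 CPM. Of the 40 higher genes 19 had at least 5 CPM in HT29, where 1 lay above 0.58, none below -0.58 and 12 were positive. Of the 24 lower genes 14 had at least 5 CPM in HT29, where 1 lay below -0.58, none above 0.58 and 10 were negative. In HT29, 0.356% of 9838 genes lay above 0.58 and 0.427% below -0.58. Of the 9137 genes with at least 5 CPM in both lines, 4241 were positive and 4896 negative in HT29. Over the 9137 genes with at least 5 CPM in both lines the log2 ratios had a Pearson r of 0.171 and a Spearman rho of 0.180 across genes, which share the 4 libraries' TMM scaling and are not independent replicates.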

How the data were processed

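Total RNA of 4 cultures was sequenced after preparation with the NEBNext Ultra RNA kit. The authors deposited raw counts per gene in 1 table. Per the labels' processing notes, cutadapt 1.9 and Trimmomatic 0.39 were used, reads were aligned to hg38 with HISAT2 2.1.0 and counted with featureCounts 2.0.1. Whether counting used strand, and how it treated reads that align more than once, is not given in the sources used here.

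Here the counts were scaled by TMM over the 4 libraries in edgeR 4.0.16 (R 4.3.3), and log2 ratios were taken from CPM with a prior count of 2. The TMM factors of the HCT116 libraries were 1.06 and 1.05. No p-value can be had from 1 library per condition. Genes were kept from a mean of 5 CPM upwards, and a gene was set aside as having a copy where minimap2 2.31 aligned 50% or more of the transcript, at 98% identity or more, elsewhere in the reference, alternate contigs included. Names came from GENCODE 44, in which 42047 of the 61544 genes have a symbol.

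The text names the 15 largest increases and decreases with a symbol, up to 4 members with the largest log2 ratio of each of 51 gene lists, every gene with a count in the lists of LPS sensing, NF-κB subunits, NF-κB inhibitors, IL6 and TNF, and glucocorticoid receptor and TET2, and the mitochondrial genome. Not all of these are printed. The genes, lists and thresholds were chosen with earlier results of these data known. Of the 51 lists, 5 hold markers and 43 of the others had at least 5 measured genes. Alternatives changed the scaling (DESeq2 1.42.0 size factors, library size, TMM within the pair or without mitochondrial genes), the prior count, depth, the minimum, the threshold, the treatment of copies and overlaps, and the trends with length and GC content (mgcv 1.9.3). The scripts were tested on simulated data. Depth allows a gene with 0 counts up to 0.133 CPM in the control and 0.145 CPM with LPS.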

Additional observations from a re-analysis of the deposited data

Results flagged for a closer look

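In 3 genes the log2 ratios of the lines lay beyond 0.58 on opposite sides, with each counting interval on 1 side of 0. All 3 were under 5 CPM in HT29, the minimum used for HCT116. At 1 to 5 CPM in HCT116, 13.8% of genes lay above 0.58 and 8.89% below -0.58, so that opposite sides at this level say little. HCT116 and HT29 were not tested against each other here, since no condition was repeated. KCNAB3, the potassium channel subunit, had a log2 ratio of 0.82 in HCT116 (130 and 211 counts) and -1.09 in HT29 (29 and 14 counts). PPM1F-AS1, a noncoding gene that shares 18.1% of its exon bases with TOP3B, had 0.69 in HCT116 (97 and 144 counts) and -0.72 in HT29 (55 and 36 counts). SYCE1L, a relative of a synaptonemal complex gene, had -0.58 in HCT116 (181 and 110 counts) and 1.05 in HT29 (14 and 34 counts).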

How the results depend on the processing

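The counts of 40 genes above 0.58 and 24 below -0.58 depended mainly on which genes entered. With a minimum mean of 1 CPM they were 426 and 272, with no filter 3523 and 3322, and from 20 CPM upwards 5 and 0. Keeping genes with a copy gave 73 and 42, and without genes whose exons overlap another gene 18 and 18. At a threshold of 1 they were 0 and 2. Prior counts of 0.5 and 5, DESeq2 size factors, TMM within the pair or without mitochondrial genes, thinning, the requirement that the interval excludes 0, and trend removal gave 36 to 43 above and 22 to 26 below. Library size alone gave 33 and 32. Leaving out pseudogenes, an alternative added after the data were seen, gave 39 and 17. The signs of the 30 largest changes held under the 8 alternatives in scaling, prior count, depth and trends. The smallest of them in size was -0.63, for TNFAIP8, while library size alone moved the median of all genes by -0.025. Signs of changes this large could hardly turn, so that this gives no evidence for or against them. Of 550 list medians recomputed, 115 moved by more than the counting error of the median, and 20 of the 43 lists changed the sign of a median of at most 0.06 in size under an alternative. No paired analysis was possible because within HCT116 each condition has 1 library, and a fit with the cell line as the pair, which would take HT29 as the repeat, was not run. At 5 to 10 CPM the median half-width of the counting interval was 0.329, so that smaller differences of such genes were not detectable at this depth.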

Other observations

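Of the 292 measured lncRNA genes 9 lay above 0.58 and 2 below -0.58, against 0.374% and 0.225% of all measured genes. Such shares depend on level, and a comparison with genes of the same level was not made. The median of the lncRNA genes was 0.06, and 0.04 with the trends with gene length and GC content removed. GAS6-AS1, antisense to the growth factor gene GAS6, had 772 counts in the control and 1106 with LPS (0.65, interval 0.51 to 0.78), and MHENCR had 181 and 282 (0.76, interval 0.49 to 1.05). NEAT1, the RNA scaffold of paraspeckles, had 10379 and 11141 counts (0.23, interval 0.19 to 0.27), and NORAD, which sequesters Pumilio proteins, had 7572 and 5758 (-0.27, interval -0.32 to -0.22). GAS6-AS1, which shares 6.7% of its exon bases with GAS6, was named after its values were seen.

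Chromosome medians lay within 0.1 of 0 on the nuclear chromosomes, with the lowest, -0.06, on chromosome 4 (388 genes) and the highest, 0.05, on chromosome 19 (768 genes). With the trends with gene length and GC content removed they were -0.03 and 0.0027. SNRPG, a core protein of the spliceosome named after its values were seen, had 570 and 804 counts in HCT116 (0.62, interval 0.47 to 0.78) and 1160 and 892 in HT29 (-0.52, interval -0.65 to -0.39) with no test of HCT116 against HT29. H2BC5, a replication histone gene, had 154 and 211 counts (0.58, interval 0.28 to 0.89), just under the threshold. GSDMD, which forms the pores of pyroptosis, had 21 and 395 counts but also matches an alternate contig, which makes the value uncertain, and it was not among the measured genes.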
